A study of Mus musculus with 12 samples.

Results

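S100a8, S100a9, Stfa1, Stfa2l1, BC100530 and Retnla are 6 of the 23420 gene symbols measured in sorted epidermal leukocytes of wild-type and Cbfbeta2 knockout mice. They were chosen by their values at the younger age, where all of them were far higher in the knockout than in the wild type, so that difference is given here as a description, with no test. S100a8 and S100a9 encode the 2 chains of calprotectin, Stfa1, Stfa2l1 and BC100530 encode stefin A-type proteins, and Retnla encodes resistin-like molecule alpha (RELMalpha). The question here is how the level of each gene differed between single knockout libraries, between ages, and beside RNA of other cell types.

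CD45+CD3-CD11b+MHCII+ cells, that is leukocytes that lack a T-cell marker and carry a myeloid integrin and antigen-presenting molecules, were sorted from mouse epidermis, 100 cells per tube. The 4 groups were wild type at the age labelled P5, Cbfbeta2 knockout at P5, wild type at the age labelled 1.5M and Cbfbeta2 knockout at 1.5M, with 3 libraries each (12 in all). Cbfbeta2 is a splice form of the RUNX partner subunit CBFbeta. Strain, sex, the number of animals per tube and whether the deletion was limited to some tissues are not given in the labels. The 3 libraries of a group were independent library preparations, but whether they came from separate animals is not stated, so the p-values below measure the spread between these libraries, which may be technical. RNA molecules were counted with molecular barcodes, and the deposited values were scaled to the same total of 37092 per library, called scaled counts here. One molecule was worth 0.479 to 1.20 scaled counts. The libraries held 34192 to 52208 molecules in P5 wild type, 30913 to 51001 in P5 knockout, 40254 to 51848 in 1.5M wild type and 74620 to 77420 in 1.5M knockout.

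Calprotectin is a calcium- and zinc-binding heterodimer that fills the cytosol of neutrophils and is also made by monocytes and by stressed or inflamed epidermis. Once released, it withholds metal ions from microbes and can signal through TLR4 and RAGE. Stefins are small cytosolic inhibitors of papain-like cysteine proteases such as cathepsins B, L and S, and in the mouse the stefin A genes form a family of close copies on 1 chromosome. RELMalpha is a small secreted protein made by alternatively activated macrophages, eosinophils and epithelia, and interleukin 4 and interleukin 13 induce its gene through STAT6.

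S100a8 lies on chromosome 3 of mm10 at chr3:90668978-90670035 on the plus strand and S100a9 at chr3:90692632-90695721 on the minus strand. The other 4 genes lie on chromosome 16: Stfa2l1 at chr16:36156811-36161953 (plus), Stfa1 at chr16:36276951-36285373 (plus), BC100530 at chr16:36359382-36367748 (minus) and Retnla at chr16:48842551-48844461 (plus). All of them are annotated as protein-coding. An antisense gene, Gm15845, overlaps BC100530 and is not among the genes analysed here. No source used here says whether the counting used strand.

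The promoters are shown because the 6 genes were high in the same libraries. Of the 6 members, 5 matched RefSeq's promoter table (GRCm38.p6, the mm10 build) by symbol and BC100530 matched by gene ID, under the symbol Cstdc5. RefSeq and GENCODE M21, the source of the gene coordinates above, place some starts differently: the RefSeq start lies inside the GENCODE gene by 93 bases for S100a8, 58 for Retnla, 197 for Stfa1 and 178 for BC100530, and the starts are the same for S100a9 and Stfa2l1. The stretches below for S100a8 (chr3:90668821-90668977, plus strand), S100a9 (chr3:90695722-90695971, minus strand) and Retnla (chr16:48842359-48842550, plus strand) run from 250 bases before the RefSeq start to the last base before the GENCODE gene. The windows were searched for TATAAA, and capitals mark matches to the CEBP core TTNNGNAA and to the palindromic STAT6 core, TTC and GAA with 4 bases between. All were searched on both strands.
S100a8: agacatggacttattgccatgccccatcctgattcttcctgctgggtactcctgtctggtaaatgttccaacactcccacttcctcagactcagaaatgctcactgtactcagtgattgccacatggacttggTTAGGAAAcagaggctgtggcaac
S100a9: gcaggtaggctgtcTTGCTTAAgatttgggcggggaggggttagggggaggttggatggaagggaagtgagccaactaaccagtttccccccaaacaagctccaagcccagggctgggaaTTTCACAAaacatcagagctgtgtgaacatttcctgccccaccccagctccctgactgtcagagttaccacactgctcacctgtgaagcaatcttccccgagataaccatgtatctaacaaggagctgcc
Retnla: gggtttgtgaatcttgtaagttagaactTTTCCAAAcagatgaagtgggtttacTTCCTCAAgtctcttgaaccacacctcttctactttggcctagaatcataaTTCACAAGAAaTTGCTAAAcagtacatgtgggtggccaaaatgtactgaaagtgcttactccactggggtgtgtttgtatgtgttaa
TATAAA lay 30 bases before the RefSeq start of S100a8 and of Retnla, and at the start itself in S100a9, in each case past the stretch shown. It is present in 13.6% of the 32851 windows of the table, counted over 250 bases before to 50 bases after each start. The CEBP core was found 1 time in the S100a8 window, 2 times in that of S100a9 and 3 times in that of Retnla, against 40.7% of all windows with at least 1 match. The windows of Stfa1, Stfa2l1 and BC100530 also held it. The STAT6 core was found once in Retnla, 145 bases before its RefSeq start, and in none of the other 5 members. Of the related non-member genes searched, Retnlg and Stfa2 held the STAT6 core, which is present in 6.95% of all windows. These are letter matches and say nothing of binding.

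The promoters of Stfa1, Stfa2l1, BC100530, Stfa2, Stfa3 and Gm5483 shared a run of 13 bases. It is shown for the 3 member stefins, each with the 17 bases before it and the run in capitals: Stfa1 at chr16:36277098-36277127 (plus), Stfa2l1 at chr16:36156758-36156787 (plus) and BC100530 at chr16:36367570-36367599 (minus).
Stfa1: aggaggagctttcggatACCTTTAAAACCC
Stfa2l1: aggaggagtttacagaaACCTTTAAAACCC
BC100530: aggaggagtttacagatACCTTTAAAACCC
The run was found by comparing stefin promoters with each other, so its presence in them is no separate result. It occurred in 9 of the 32851 windows (0.027%), and the 9 symbols were Stfa1, Stfa2, Stfa2l1, Stfa3, Csta3, Cstdc3, Cstdc4, Cstdc5 and Gm7260. The windows of Csta and 2010005H15Rik, of the same gene family, did not hold it. For Stfa1 and BC100530 the run lay inside the GENCODE gene, and in BC100530 it ended at the RefSeq start.

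The coding sequences show how alike the stefins are, which bears on how far their counts can be told apart. The first 90 coding bases (GENCODE M21) are given for 2 pairs, with capitals where a letter differs from the other gene of the pair, Stfa1 with BC100530 and Stfa2l1 with its neighbour Stfa2.
Stfa1: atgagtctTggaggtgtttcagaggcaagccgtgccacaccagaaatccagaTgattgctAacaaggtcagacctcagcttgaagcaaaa
BC100530: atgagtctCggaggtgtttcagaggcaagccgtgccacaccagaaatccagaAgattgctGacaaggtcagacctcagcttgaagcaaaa
Stfa2l1: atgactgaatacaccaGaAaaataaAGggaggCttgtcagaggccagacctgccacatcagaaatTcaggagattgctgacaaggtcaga
Stfa2: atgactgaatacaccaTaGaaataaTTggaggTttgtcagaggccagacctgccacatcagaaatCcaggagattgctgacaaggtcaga
Stfa1 and BC100530 differed at 3 of these 90 positions and Stfa2l1 and Stfa2 at 6. Over the last 200 bases of the transcript, the end that priming from the poly(A) tail favours, Stfa1 and BC100530 were 98.5% identical. Stfa2l1 and Stfa2 were 60.6% identical there, S100a8 and S100a9 48.3%, and Retnla and its neighbour Retnlg 73.6%. Of aligned coding positions, gaps included, S100a8 and S100a9 shared 49.7% and Retnla and Retnlg 71.5%. On that measure Stfa2l1 and Stfa2 shared 96.5% and Stfa1 and BC100530 74.4%. The annotated coding sequence of Stfa1 is longer, at 387 bases against 294 in BC100530.

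The sort was checked on its own genes. Ptprc (CD45) averaged 15.9 ± 2.40 scaled counts in P5 wild type and 14.9 ± 3.45 in P5 knockout (mean ± SD, n = 3 libraries). Cd3e was 0 in all 12 libraries, and Itgam (CD11b) was above 0 in all 12. Of 6 gate genes tested at P5, 0 were called higher in knockout and 3 lower (limma, adjusted p under 0.05). Over all genes tested, 1.15% and 0.649% were. The 3 were H2-Aa (456 ± 40.2 in wild type, 333 ± 44.8 in knockout), H2-Ab1 (171 ± 17.8 and 106 ± 23.8) and Cd74 (753 ± 89.9 and 533 ± 58.7). H2-Eb1, at 164 ± 19.7 and 138 ± 28.0, was not called. Cd207, the langerin gene that defines mature Langerhans cells, averaged 1.58 ± 1.19 in P5 wild type, was 0 in P5 knockout, and averaged 214 ± 33.7 in 1.5M wild type. In bulk tubes such as these, more cells that express a gene cannot be told apart from more RNA of that gene per cell.

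S100a8, the smaller calprotectin chain, was at 35.4, 26.9 and 94.8 scaled counts in P5 knockout libraries 1, 2 and 3, and at 0, 0 and 3.91 in the P5 wild-type libraries. Every knockout library lay above every wild-type library. The knockout counts rested on 39, 37 and 79 molecules, and the wild-type group on 4 molecules in 1 library. On the log2(scaled count + 1) scale used for all log2 differences here, S100a8 was higher by 4.76 (SE 0.56). The SE of each member comes from a spread pooled over both ages. At the older age every member was at 0 in all libraries, with no spread, which lowers that SE. It thus understates the spread between the P5 libraries, and the same limit holds for other genes at 0 at the older age. The added count of 1 pulls in the differences of genes near 0. Pooled over libraries, 155 molecules stood against 4, a ratio of 39.3 with a 95% counting interval of 15 to 146. Such an interval, here and for S100a9, covers counting error only. It leaves out the spread between libraries and is no test of the difference.

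S100a9, the partner chain, was at 34.5, 16 and 104 in the P5 knockout libraries and at 1.42, 0 and 0 in the wild type. The same library was highest for both chains, and the same library was lowest. The log2 difference was 4.89 (SE 0.55), from 147 molecules against 2 (ratio 74.5, counting interval 20.3 to 621). The S100a9 count was 0.974, 0.595 and 1.10 times the S100a8 count in knockout libraries 1, 2 and 3, while the level moved over the 3 libraries by 3.52 times for S100a8 and 6.52 times for S100a9. In library 2 the counting intervals of the pair overlapped, at 26.1 to 51.0 molecules for S100a8 and 13.8 to 33.3 for S100a9.

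Among the stefins, Stfa1 was at 21.5, 20.5 and 78.0 scaled counts in the P5 knockout libraries and at 1.19, 1.08 and 1.63 in the wild type. Stfa2l1 was at 13.6, 11.3 and 28.8 in the knockout and at 2.13, 0.542 and 0 in the wild type. BC100530 was at 38.3, 15.8 and 90.6 in the knockout and at 1.90, 3.25 and 3.58 in the wild type. None of the 3 stefins overlapped between genotypes, and each was highest in knockout library 3. Unlike the calprotectin genes, Stfa1 and BC100530 were above 0 in every P5 wild-type library. The log2 differences were 3.88 (SE 0.48) for Stfa1, 3.37 (SE 0.50) for Stfa2l1 and 3.35 (SE 0.49) for BC100530.

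Retnla was at 43.6, 3.64 and 58.8 scaled counts in P5 knockout libraries 1, 2 and 3 and at 0 in all 3 P5 wild-type libraries. It was the most uneven member, with 16.2 times between its highest and lowest knockout library. The knockout counts rested on 48, 5 and 49 molecules, and the interval in library 2 (1.62 to 11.7 molecules) lay wholly below those in libraries 1 (35.4 to 63.6) and 3 (36.3 to 64.8). Its mean in the knockout, 35.3 ± 28.5 (SD, n = 3), was at least 39.5-fold higher than the 0.895 scaled counts that 3 molecules over the wild-type group would give. The log2 difference was 4.53 (SE 0.66), a value that depends on the pseudocount because the wild type is at 0. Its SE is also lowered by the libraries of the older age, all at 0, and so understates the uneven P5 knockout values.

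All 6 members were among the genes called higher in P5 knockout by limma, as 1.15% of the 10023 genes tested were (0.649% were called lower), and among those whose 3 knockout libraries all lay above the 3 wild-type libraries, as 6.23% were. Since that contrast chose them, nothing is read from either count. Retnla was above 0 in 3 libraries only and passed the expression filter, which asks for 3 libraries above 0, through the knockout group. Members near that edge can be seen from S100a8 and S100a9, above 0 in 4 libraries each, Stfa2l1 in 5, and Stfa1 and BC100530 in 6.

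**Figure D1:**
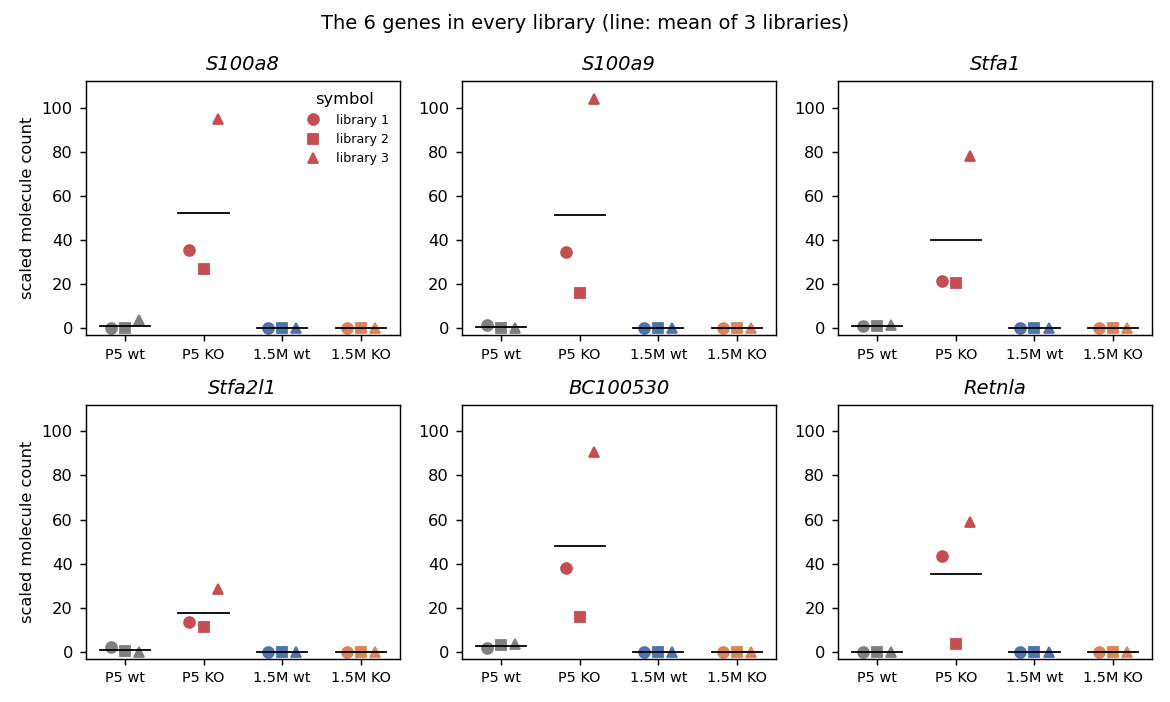
Scaled counts of each of the 6 genes in each of the 12 libraries, 1 panel per gene, with the 4 groups on the x axis, points for libraries and a line for the group mean. The P5 knockout points lie above all others in every panel, library 3 is the highest point in each, and both 1.5M groups lie at 0.

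The members were not evenly spread over the 3 P5 knockout tubes. Their sum was 187, 94.1 and 455 scaled counts in libraries 1, 2 and 3, or 0.504%, 0.254% and 1.23% of all counts in those libraries. In the 3 P5 wild-type libraries the sum was 6.64, 4.88 and 9.12. Library 3 held from 53.6% (Stfa2l1) to 67.4% (S100a9) of the summed knockout level of each gene, and it was the shallowest of the 12 libraries, at 30913 molecules. The excess was also present in molecules before scaling, with 205.84, 129.34 and 379.5 molecules of the 6 genes in libraries 1, 2 and 3.

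Without knockout library 3, the mean of the other 2 libraries was 31.2 for S100a8, 25.3 for S100a9, 21 for Stfa1, 12.4 for Stfa2l1, 27.0 for BC100530 and 23.6 for Retnla. These means remained above every wild-type value of the same gene. Library 2 stood apart in another way: Retnla was 0.135 times the S100a8 count there, against 1.23 times in library 1 and 0.620 times in library 3. Over these 3 tubes Retnla thus kept no steady ratio to S100a8.

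Markers of other cell types also differed between the same 3 tubes, and their part in the member values was not tested. The neutrophil list (21 genes in the table, no member among them) summed to 35.6, 20.5 and 76.3 scaled counts in knockout libraries 1, 2 and 3, against 12.3 to 21.8 in P5 wild type. Its split over the 3 libraries was 26.9%, 15.5% and 57.6%, and that of the 6 members was 25.4%, 12.8% and 61.8%. Of the 21 genes, 6 were at 0 in all 3 P5 knockout libraries, among them Elane, Mpo, Prtn3 and Ctsg, the primary-granule proteases and peroxidase of immature neutrophils.

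Some neutrophil-list genes with their highest values in knockout library 3 are given first, singled out after their values were seen. Ngp, a granule protein of maturing neutrophils, was at 0, 0 and 13.2, and Ltf, lactoferrin, at 0, 0 and 12. Lcn2, a siderophore-binding protein made by neutrophils and by inflamed epithelium, was at 0.908, 0.727 and 14.4. Each of the 3 genes was 0 in all 9 other libraries. The collagenase gene Mmp8 was at 2.72, 0 and 4.80, and the receptor gene Trem1 at 3.63, 0 and 3.60, so both were at 0 in the library where Retnla was lowest. Other genes of the list did not follow that order: the chemokine receptor gene Cxcr2 was at 6.76, 4.83 and 3.34, Il1r2 at 2.72, 5.82 and 2.40, and Fpr1 at 1.82, 0 and 0. Cxcr2 held fractional molecules, not whole ones, in all 12 libraries, so its count may include molecules that also match other genes.

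Within the neutrophil list, 1 of 9 tested genes was called higher at P5 and 0 lower by limma, against 1.15% and 0.649% of all genes, and the median log2 difference was 0.03 against -0.01 over all genes tested. The called gene was Fpr2, a formyl peptide receptor, at 2.72, 2.18 and 1.20 in knockout and 0 in wild type (adjusted p = 0.00969, limma), but it passed the expression filter through the knockout group alone, so its call is not read. Csf3r, the G-CSF receptor, was at 3.67 ± 2.43 in wild type and 3.77 ± 2.22 in knockout (SD, n = 3 libraries), with a log2 difference of 0.03 (SE 0.50). Csf3r held fractional molecules in 8 libraries, so the same limit as for Cxcr2 holds. At 1.5M, where all 6 members were at 0, the same list summed to 145 to 176 in wild type. Most of that was Il1r2, a decoy interleukin 1 receptor that Langerhans cells also express, at 133 ± 15.4 (SD, n = 3 libraries).

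The summed keratinocyte and red-cell lists did not follow the same order over the 3 tubes, though some single keratinocyte genes did. The keratinocyte list (21 genes) summed to 784, 259 and 289 in P5 knockout libraries 1, 2 and 3, against 79.1 to 119 in P5 wild type, and was thus highest in library 1. Of its 20 tested genes, 4 were called higher by limma (Krt10, Krt1, Perp and Lor) and 0 lower, against 1.15% and 0.649% of all genes, with a median log2 difference of 1.25. No keratinocyte gene was called without knockout library 1 or without wild-type library 2 or 3, 1 was called without wild-type library 1, and 2 without knockout library 2. Keratin genes differed in order over knockout libraries 1, 2 and 3. Krt5 (25.4, 15.3 and 63.6), Krt14 (15.4, 10.2 and 22.8) and Krt15 (13.6, 7.27 and 34.8) were ordered as the members were. Krt1 (242, 59.6 and 34.8) and Krt10 (260, 80.0 and 52.8) were highest in library 1 and lowest in library 3. The erythroid list (9 genes) summed to 404, 524 and 2.39, so globin RNA was almost absent from library 3, where the members were highest. Its 3 calls of 5 tested genes were lost without P5 knockout library 1 or 2, or without any 1 P5 wild-type library. Hbb-b1 and Hbb-b2, 2 of the 3, were above 0 in the P5 knockout libraries only and so passed the filter through that group. Without knockout library 3 they were no longer tested, and the 3 genes called were Beta-s, Hba-a1 and Hba-a2.

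T-cell, mast cell, basophil, eosinophil, fibroblast and endothelial markers were near 0. The T-cell list (8 genes) summed to 1.45 to 3.60 in P5 knockout and up to 0.977 in P5 wild type, and 2 of its genes were tested. Cd2, at 2.72, 0.727 and 1.20 in P5 knockout and 0 in the other 9 libraries, passed the expression filter through the group where it was high, so its call is not read. The mast cell, basophil and eosinophil list (17 genes) summed to 1.09 to 3.60 in knockout and 0.358 to 3.08 in wild type, and none of 2 tested genes was called. The fibroblast and endothelial list (10 genes) summed to 3.60 to 8.17 in knockout and 0.977 to 9.76 in wild type, with none of 3 tested genes called.

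The monocyte and macrophage list was more even over the 3 knockout tubes. Its 25 genes summed to 256, 255 and 313 in P5 knockout libraries 1, 2 and 3 and to 156 to 200 in P5 wild type. Of 19 tested genes, 8 were called higher by limma and 0 lower, against 1.15% and 0.649% of all genes, with a median log2 difference of 1.61. Lyz2, the myeloid lysozyme, was at 11.4, 22.5 and 9 in knockout and at 3.55, 1.08 and 0 in wild type (log2 difference 2.75, SE 0.50, adjusted p = 0.00428, limma). Lyz1 was also among the 8, and both genes held fractional molecules in 5 libraries, so their calls may share molecules. Ccr2, the chemokine receptor of inflammatory monocytes, was at 8.17, 17.5 and 28.8 against 4.97, 2.17 and 1.95 (log2 difference 2.17, SE 0.48, adjusted p = 0.0191, limma). The count of called genes was 3 without knockout library 2, and 4 without either knockout library 3 or wild-type library 3.

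**Figure D2:**
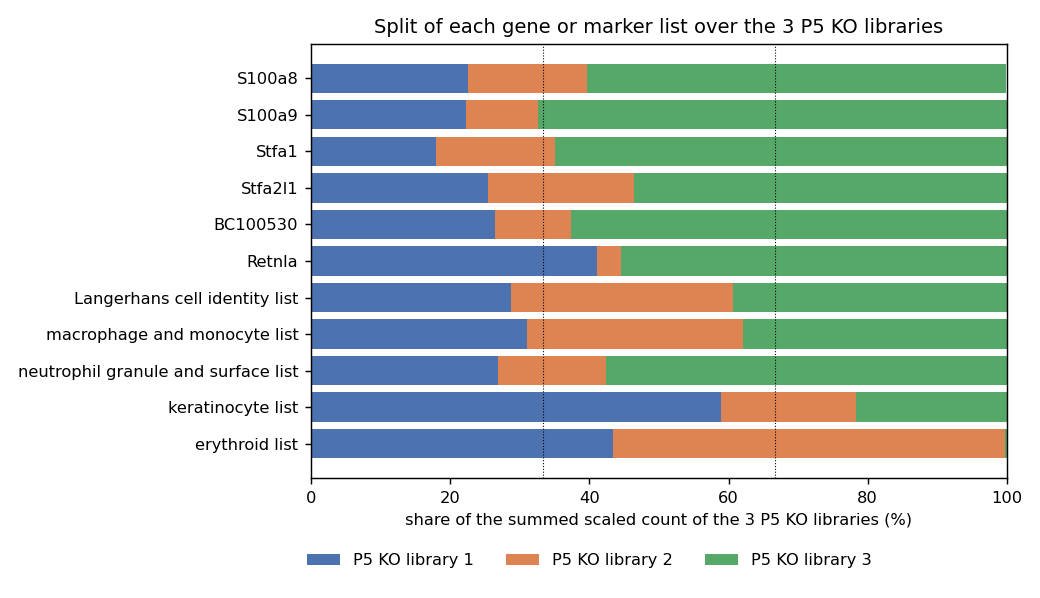
Stacked bars of the share of the summed P5 knockout level held by each knockout library (x axis, percent), for each of the 6 genes and for 5 marker lists (y axis), with dotted lines at an even split. Library 3 holds 53.6% to 67.4% of each gene and 57.6% of the neutrophil list, 39.4% of the Langerhans list and 38.0% of the macrophage list, while the keratinocyte list is largest in library 1 and the erythroid list in library 2.

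**Figure D3:**
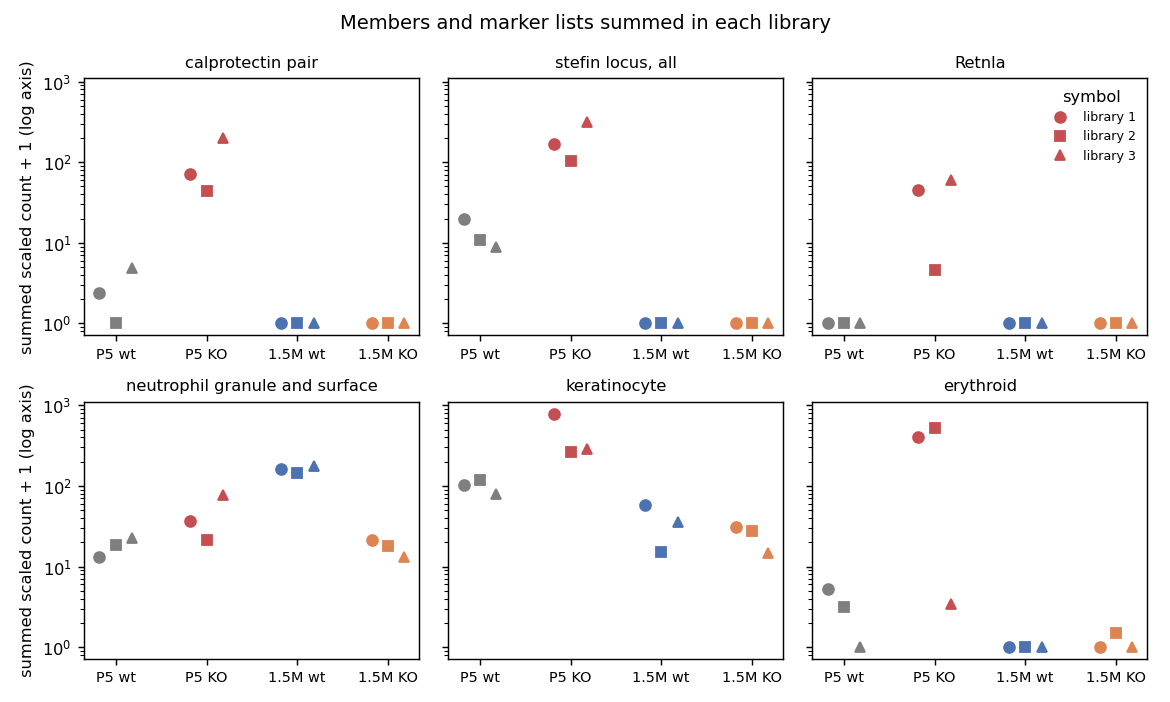
Summed scaled count + 1 (y axis, log scale) of the calprotectin pair, the stefin A cluster, Retnla and 3 marker lists in each of the 12 libraries (points, by group on the x axis). The calprotectin pair runs from 42.9 to 199 in P5 knockout and up to 3.91 in P5 wild type, and it, the stefin cluster and Retnla are at 0 (drawn at 1) in both 1.5M groups.

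At the later age the members were not detected. All 6 genes were at 0 in all 3 wild-type and all 3 knockout libraries at 1.5M. The 1.5M knockout libraries were the deepest, and 3 molecules over that group would correspond to 0.485 scaled counts. Against that floor, the P5 knockout mean was at least 108-fold higher for S100a8, 106-fold for S100a9, 82.5-fold for Stfa1, 36.9-fold for Stfa2l1, 99.4-fold for BC100530 and 72.9-fold for Retnla. No genotype difference at 1.5M was detectable for any member at this depth, and no fold is given there since both groups are at 0. By group mean, the order was thus P5 knockout, P5 wild type and then both 1.5M groups for S100a8, S100a9 and the 3 stefins, whereas Retnla was seen in P5 knockout only. The P5 wild-type mean of S100a9, 0.474, came from 1 library and lay under the floor of that group, 0.895. P5 wild type and the 1.5M groups overlapped at 0 for S100a8, S100a9, Stfa2l1 and Retnla. Stfa1 rested on 1.67, 1 and 1.67 molecules in P5 wild-type libraries 1, 2 and 3, and BC100530 on 2.67, 3 and 3.67. At so few molecules, nothing is read from the step between P5 wild type and 1.5M.

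Across the 12 libraries the members moved together, with Pearson's r of log2(scaled count + 1) from 0.91 (BC100530 and Retnla) to 0.99 (S100a9 and Stfa2l1). These values describe libraries that share groups and depth, and 9 of the 12 were at or near 0, so the group difference sets much of each r. Stefin genes may also share molecules, as set out below, so an r between stefins may be partly built in. Among 3186 other tested genes with a mean of at least 2, the 5 most like S100a8 were BC117090 (0.96), Gm5483 (0.93), Stfa2 (0.93), the basal keratin gene Krt15 (0.92) and Stfa3 (0.90). For S100a9 they were Gm5483 (0.98), BC117090 (0.97), Stfa2 (0.96), 2010005H15Rik (0.95) and Stfa3 (0.94). The sum of the 3 member stefins was most like BC117090 and Stfa2 (both 0.98), then Krt14, Stfa3 and Krt15 (each 0.95). For Retnla they were BC117090 (0.95), Stfa3 (0.94), Tiam1 (0.90), Gm5483 (0.90) and Perp (0.88). Krt15 was at 13.6, 7.27 and 34.8 in P5 knockout libraries 1, 2 and 3, the order of the S100a8 values, while Krt10, a keratin of the upper epidermis, was at 260, 80.0 and 52.8.

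Most stefins outside the 6 members were also higher in P5 knockout. The stefin A cluster holds 10 genes over 335.4 kb of chromosome 16, of which 7 are not members. With Cstb added, 8 non-member stefins were tested, and 6 were called higher in P5 knockout by limma and 0 lower, against 1.15% and 0.649% of all genes, with a median log2 difference of 2.50 against -0.01 over all genes. The count of calls was 2 with a pseudocount of 0.1. Some of these genes can share molecules with the members, as set out below, so the count is no result independent of the members. Gm5483 was at 14.1, 20.7 and 38.4 in knockout and 2.13, 0 and 0 in wild type (log2 difference 4.0, SE 0.51, adjusted p = 0.000112, limma). Stfa3 was at 40.9, 5.09 and 26.4 against 2.84, 1.08 and 0.977 (log2 difference 2.93, SE 0.56, adjusted p = 0.00757, limma). Stfa3 was thus highest in library 1, unlike any member, and its call was lost without that library (adjusted p = 0.0647, limma).

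The other 4 called stefins were 2010005H15Rik (log2 difference 3.22, SE 0.54), BC117090 (2.56, SE 0.49), Stfa2 (2.44, SE 0.52) and Gm5416 (1.25, SE 0.28), with adjusted p from 0.00193 to 0.0227 by limma. Gm5416, at 0.908, 2.18 and 1.20 in P5 knockout and 0 elsewhere, passed the expression filter through that group alone, so it had to differ and adds nothing to the count. Leaving out 1 P5 library at a time, 4 or 5 of the 8 were called. The remaining 2, Csta and Cstb, were not called: Cstb, a stefin made by most cell types, was at 6.53 ± 1.44 in P5 wild type and 6.13 ± 5.43 in P5 knockout (SD, n = 3 libraries). All 7 non-member genes of the cluster were at 0 at 1.5M, whereas Cstb was above 0 in all 12 libraries.

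Counts within the cluster are uncertain between genes. From 2 to 7 of the 10 cluster genes held fractional molecules in each P5 library, yet the cluster's total came within 0.01 of a whole number in each: 26.01, 9 and 8.01 molecules in wild type and 184.01, 140.01 and 266 in knockout. How molecules that match several copies were assigned is not stated in the labels, so the split between single stefins carries an error that the SE does not hold. BC117090, with fractional molecules in 5 libraries, shared 95.2% of aligned coding positions with BC100530. The P5 calls of non-member stefins may thus rest partly on molecules of the members, which were chosen on that contrast. The total for the cluster was 167, 102 and 319 scaled counts in P5 knockout libraries 1, 2 and 3, 7.82 to 18.5 in P5 wild type and 0 at 1.5M.

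**Figure D4:**
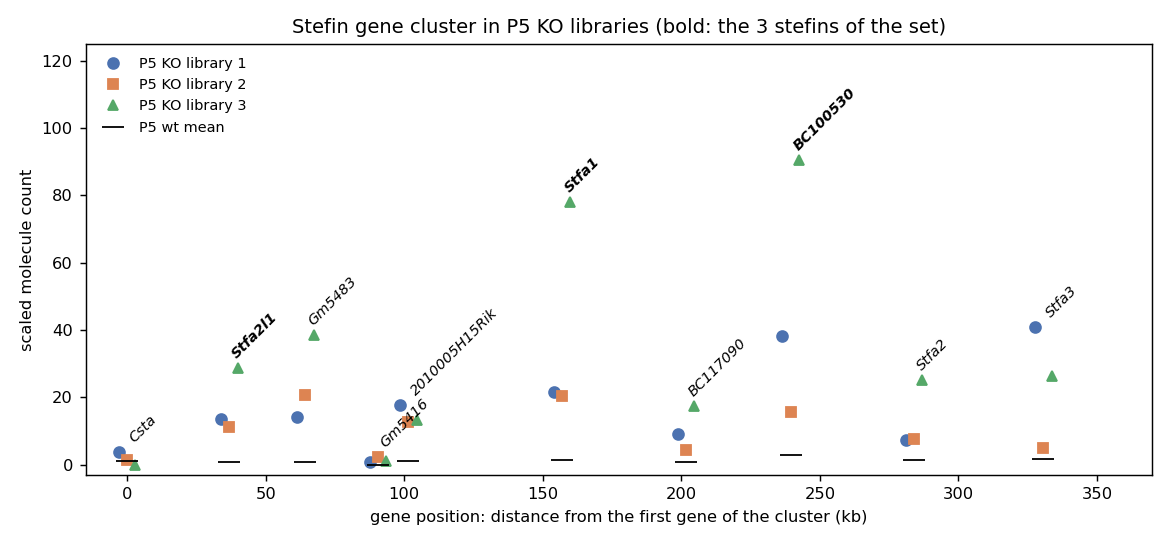
Scaled count (y axis) of the 10 genes of the stefin A cluster in each P5 knockout library (points) and the P5 wild-type mean (dash), placed by distance in kb from the first gene (x axis). All knockout points lie above the wild-type mean at 9 of the 10 genes, the exception being Csta at the start of the cluster.

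Cysteine proteases of the endosome and lysosome were counted as a group, the papain-like cathepsins that stefins inhibit plus legumain (Lgmn), an asparaginyl protease that they do not. Of 9 tested genes, 0 were called at P5 (limma; 1278 of all 10023 genes had an unadjusted p under 0.05), although 3 member stefins were higher there. Ctsb was at 30.3 ± 2.53 in P5 wild type and 42.2 ± 0.600 in P5 knockout (SD, n = 3 libraries). At 1.5M, where the stefin A genes were at 0, 5 of 9 were called higher in knockout and 0 lower (4 of 8 without Lgmn), where 3.24% of all genes were called higher and 2.04% lower. Lgmn was at 1.67 ± 0.897 in 1.5M wild type and 34.3 ± 4.62 in 1.5M knockout (log2 difference 3.77, SE 0.28, adjusted p = 2.84e-09, limma). Ctsb (1.21, SE 0.19), Ctsz (1.92, SE 0.33), Ctsc (1.59, SE 0.33) and Ctss (0.62, SE 0.17) also rose on the log2 scale, with Ctss no longer called without wild-type library 1 or 2 or any 1 knockout library of that age. The secreted cystatin gene Cst3, an inhibitor of papain-like cathepsins, fell by 0.99 (SE 0.11) at P5 and by 1.75 (SE 0.11) at 1.5M on the log2 scale (adjusted p = 3.28e-05 and 2.43e-10, limma).

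Of 8 other S100 genes tested, 2 were called higher at P5 by limma and 0 lower, against 1.15% and 0.649% of all genes, with a median log2 difference of 0.19. S100a6, a calcium-binding protein of many cell types, was at 21.3, 15.2 and 6.84 in wild type and 28.2, 33.5 and 34.8 in knockout (log2 difference 1.22, SE 0.28, adjusted p = 0.0225, limma). S100a10, the annexin A2 partner, was at 10.7, 8.68 and 7.81 against 19.1, 26.2 and 16.8 (log2 difference 1.10, SE 0.25, adjusted p = 0.0246, limma). Neither call was made without knockout library 2 or wild-type library 3. S100a6 also lost its call without knockout library 3 (adjusted p = 0.0859, limma). S100a10 also lost its call without knockout library 1 (adjusted p = 0.0597, limma) or wild-type library 2 (adjusted p = 0.0746, limma). Unlike the calprotectin pair, both were above 0 in all 12 libraries, 1.5M included.

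Receptors and adaptors that calprotectin is known to act through were examined next. Of 10 tested, 2 (Cd14 and Cd36) were called higher at P5 by limma and 0 lower, against 1.15% and 0.649% of all genes. Cd14, the TLR4 co-receptor, was at 8.53, 11.9 and 3.91 in P5 wild type and 32.7, 40.7 and 28.8 in P5 knockout (log2 difference 2.04, SE 0.31, adjusted p = 0.000812, limma). At 1.5M, with the ligand genes at 0, Cd14 was at 1.98 ± 0.629 in wild type and 60.9 ± 10.4 in knockout (log2 difference 4.38, SE 0.31, adjusted p = 1.47e-09, limma, n = 3 libraries each). Tlr4 itself had its highest group mean in 1.5M knockout, at 1.46 ± 0.480 (SD, n = 3 libraries), and Ager, which encodes RAGE, did not exceed a mean of 0.400 scaled counts. Cd36, a scavenger receptor, was called with adjusted p = 0.0356 (limma) at P5 and lost its call without knockout library 1 or 3 or wild-type library 2 or 3.

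Retnla was set beside its own family and beside genes of alternative activation. Retnlg, the neutrophil resistin-like gene that lies close to Retnla on chromosome 16, was at 10.9, 0 and 8.40 in P5 knockout and at 0 in the other 9 libraries. Like Retnla, it was lowest in knockout library 2. Retn and Retnlb were at 0 throughout. Of 16 tested genes of alternative activation and type 2 signalling, 1 was called higher at P5 and 0 lower by limma, against 1.15% and 0.649% of all genes, with a median log2 difference of 0.45. That gene was Tgm2, a transglutaminase, at 4.54, 10.9 and 3.60 in knockout and 0 in wild type (log2 difference 2.75, SE 0.46, adjusted p = 0.00185, limma), and it was highest where Retnla was lowest. Arg1 and Chi3l3, often measured together with Retnla in alternatively activated macrophages, were at 0 in all 12 libraries, as were Il4 and Il13. Stat6 was at 2.64 ± 3.42 in P5 wild type and 4.67 ± 1.21 in P5 knockout (SD, n = 3 libraries).

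At 1.5M, with Retnla at 0, 4 of the same 16 genes were called higher in knockout and 0 lower by limma, against 3.24% and 2.04% of all genes. Ccl17, a chemokine, was at 0.238 ± 0.413 in wild type and 27.0 ± 18.6 in knockout (log2 difference 4.35, SE 0.51), and Mrc1, the mannose receptor, was at 0 and 17.8 ± 4.10 (log2 difference 4.21, SE 0.39), with adjusted p of 3.46e-06 and 1.07e-07 by limma (n = 3 libraries each). Klf4 and Mgl2 were the other called genes, with log2 differences of 1.97 (SE 0.41) and 1.90 (SE 0.36).

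CEBP factors, tied to the core shown in the promoters, were counted together with other myeloid regulators and receptors. Of 12 tested genes of the CEBP and myeloid stress list, 1 was called higher at P5 and 0 lower by limma, against 1.15% and 0.649% of all genes, with a median log2 difference of 0.00. It was Nfkbiz, an inducible nuclear cofactor of NF-kappaB, at 6.36, 11.6 and 10.8 in knockout and 3.55, 1.08 and 0 in wild type (log2 difference 2.28, SE 0.40, adjusted p = 0.00368, limma). Cebpb was at 4.48 ± 3.94 in P5 wild type and 8.18 ± 4.26 in P5 knockout (SD, n = 3 libraries; log2 difference 0.93, SE 0.44, adjusted p = 0.378, limma), and Cebpe, the granulocyte member, was 0 in all 6 P5 libraries. At 1.5M Cebpa rose by 3.28 (SE 0.37) on the log2 scale (adjusted p = 2.27e-06, limma) while all 6 members stayed at 0.

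**Figure D5:**
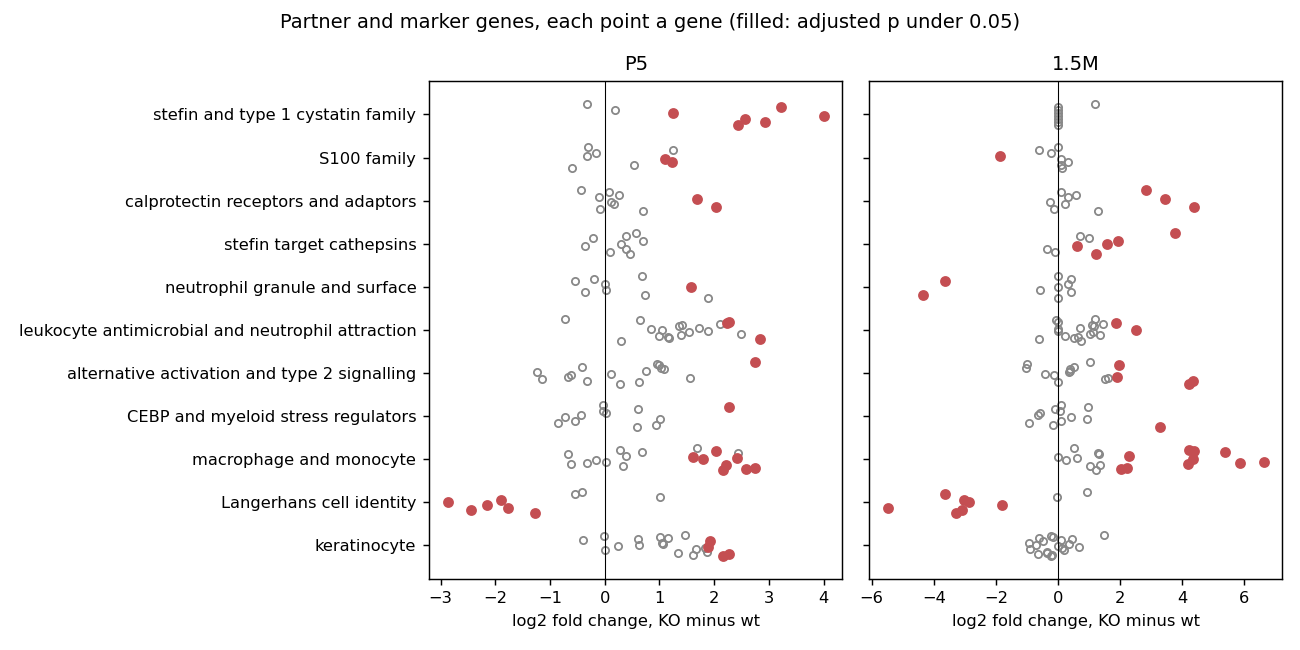
Log2 differences (knockout minus wild type, x axis) of the tested non-member genes of each list (y axis) at P5 (left) and 1.5M (right), filled where limma's adjusted p was under 0.05. The stefin list has 6 filled points at P5 and none at 1.5M, and the cathepsin list has none at P5 and 5 at 1.5M.

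Each of these calls used a spread estimated over all 12 libraries. With the 6 P5 libraries fitted alone, limma called 0 genes of the whole table, and 836 had an unadjusted p under 0.05, so no P5 call named above was made in that fit. At 1.5M the 6 libraries alone gave 630 called genes against 529, and of the 1.5M calls named above Klf4 (adjusted p = 0.148, limma) and Ctss (adjusted p = 0.0771, limma) were not made there.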

How the data were processed

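The authors counted molecules by molecular barcode in 12 libraries, per the labels' protocols. The submitters' processing notes name TopHat2 and mm10. The deposited table was read as a signal: scaled molecule counts, each library summing to 37092. The spike-in RNAs are not used here, so amounts of RNA per cell were not compared. Dividing by the value of 1 molecule gave whole numbers (within 0.01) for 92.6% to 94.9% of values in a library, under the 95% asked for, so no count model was run. Molecule counts are therefore approximate, and intervals (exact Poisson, 95%) and floors of 3 molecules cover counting error only.

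Values were analysed as log2(value + 1) by limma 3.58.1 (R 4.3.3), fitting 4 group means under a mean-variance trend with no other covariate, for 10023 genes above 0 in at least 3 of 12 libraries. Both age-matched comparisons were adjusted by Benjamini-Hochberg over all genes, and called means an adjusted p under 0.05. The fit was tested on simulated data. Alternatives changed the pseudocount, filter, scaling, libraries fitted, variance shrinkage and replicate block, and left out each library. Named genes were the 6 members, up to 4 examples per list (called genes by size, then by level), the 5 genes most like each pattern, and the highest gene of each list of other cells. Genes named outside this rule were chosen after their values were seen: the single neutrophil genes, Hba-a2, Cd3e, Itgam, Cd207, Ccr2, Tlr4, Ager, Arg1, Chi3l3, Il4, Il13, Stat6, Cebpe, Csta, Gm5416, Retnlg, Retn and Retnlb. The members and lists were chosen with earlier results of these data known. Sequences were compared with Biopython 1.88, and figures were drawn with matplotlib 3.10.9. Sample columns not used numbered 0.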

Additional observations from a re-analysis of the deposited data

How the results depend on the processing

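The 77 alternative values of the members' P5 log2 differences kept their direction, and 67 of them moved by less than 1 SD of the libraries. Neither count is read as a check, since this contrast chose the members. Settings that change only the filter, the variance, the block or the libraries of the other age cannot move a difference of group means. Leaving out a wild-type library cannot move Retnla, which was at 0 in each. The values ranged from 2.33 to 7.04 for S100a8, 2.29 to 7.29 for S100a9, 1.96 to 4.56 for Stfa1, 1.31 to 4.98 for Stfa2l1, 1.96 to 3.97 for BC100530 and 1.88 to 7.73 for Retnla, lowest with a pseudocount of 10 for each. Retnla fell under the expression filter whenever a P5 knockout library was left out, S100a8, S100a9, Stfa2l1 and Retnla did so when 6 libraries above 0 were asked for, and 1.5M values of the members gave no difference under any setting. Genes called at P5 numbered 180 (115 higher and 65 lower), 92 with a pseudocount of 0.1, 118 with no filter and 0 in the fit over the 6 P5 libraries. Leaving out 1 P5 library at a time gave 72 to 123 calls: 80 without wild-type library 2, 72 without wild-type library 3, and 88, 107 and 116 without knockout libraries 1, 2 and 3. Under median-of-ratios size factors 111 were higher and 40 lower, so that 73.5% of calls were higher against 63.9%. At 1.5M, 529 genes were called, and 359 to 386 with 1 library left out. Replicate numbers did not pair the samples: deviations of same-numbered libraries correlated between -0.042 and 0.026. With the replicate number as a block, 147 genes were called at P5 and 508 at 1.5M, and G0s2 lost its P5 call (adjusted p = 0.0537, limma). The planned count test was not run, since whole molecules were not recovered. Calls of single list genes under these settings were examined after seeing the data. Depth limits what can be said of genes at 1 to 3 molecules per library.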

Other observations

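A list of leukocyte antimicrobial and neutrophil-attracting genes was counted as well. Of its 19 tested genes, 3 were called higher at P5 by limma and 0 lower, against 1.15% and 0.649% of all genes, with a median log2 difference of 1.39. Leaving out 1 P5 library at a time gave 2 to 6 calls, with 6 without wild-type library 1. Cxcl2, a neutrophil-attracting chemokine, was at 18.5, 3.25 and 4.88 scaled counts in P5 wild type and 50.0, 90.2 and 37.2 in P5 knockout (log2 difference 2.84, SE 0.41, adjusted p = 0.000489, limma). It was highest in knockout library 2, where the 6 members were lowest, and it did not differ between genotypes beyond the threshold at 1.5M (log2 difference -0.61, SE 0.41, adjusted p = 0.577, limma). Clec4n, which encodes the fungal receptor dectin-2, was called at both ages, with log2 differences of 2.24 (SE 0.43, adjusted p = 0.00749, limma) and 1.88 (SE 0.43, adjusted p = 0.00797, limma). The 1.5M call of Clec4n was lost without wild-type library 1 (adjusted p = 0.0632, limma) or knockout library 3 (adjusted p = 0.0502, limma). G0s2, a lipolysis inhibitor expressed in neutrophils among other cells, was called at P5 with adjusted p = 0.0428 (limma) and lost the call without knockout library 2 or 3 or wild-type library 2 or 3.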
